A study of Mus musculus with 24 samples.

Results

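The genes described here are 33 genes of glycolysis and of the response to low oxygen, matched by symbol in each of 4 tables of RNA-seq values that list 24970 unique gene symbols. The members fall into 18 genes of glucose uptake and glycolysis and 15 targets of the hypoxia response. They were compared between control mice and mice with the let-7 microRNA genes Mirlet7d, Mirlet7f-1 and Mirlet7a-1 deleted in alveolar type 2 (AT2) cells. AT2 cells are the surfactant-making cells of the alveolus. All mice carried 1 Sftpc-CreER allele, a tamoxifen-inducible Cre recombinase driven from the surfactant protein C locus, and 1 R26-tdT reporter allele. The knockouts in addition had the genotype let7afd-/-, a conditional deletion that needs this Cre, and all mice received tamoxifen. The sample kinds were flow-sorted AT2 cells 6 days after tamoxifen in pools of 3 mice (3 control and 3 knockout libraries) and whole lungs 6 days after tamoxifen (3 and 3 mice). Whole lungs were also taken after 6 months of booster tamoxifen (4 and 4 mice), and organoids were grown from AT2 cells for 14 days in AMM medium after 6 days of tamoxifen (2 and 2 mice). Mature microRNAs have no poly(A) tail and were not measured, so the deletion itself was not checked here, and no ages are stated in the labels.

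Glycolysis splits glucose into pyruvate and yields ATP without oxygen. Lactate dehydrogenase then turns pyruvate into lactate so that the pathway can go on. When oxygen is low, the hydroxylases that mark hypoxia-inducible factor (HIF) alpha subunits for destruction by the Vhl protein lose activity, and HIF, paired with Arnt, binds promoters that hold the core ACGTG or GCGTG. Its targets include most glycolytic enzymes and also Vegfa, Adm, Bnip3 and the hydroxylase Egln3, which feeds back on HIF. In the lung, AT2 cells rely mainly on mitochondrial respiration, while macrophages and other leukocytes can run high glycolysis when activated.

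The microRNAs of the deleted genes share the same seed, bases 2 to 8 of the mature strand, which pairs with target transcripts. The 3 mature sequences are shown because they define what a let-7 site is (RefSeq, GRCm38.p6, minus strand of chromosome 13, seed in capitals). Mirlet7a-1 lies at chr13:48538239-48538260, Mirlet7f-1 at chr13:48537889-48537910 and Mirlet7d at chr13:48536078-48536099.
let-7a-5p: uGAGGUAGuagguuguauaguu
let-7f-5p: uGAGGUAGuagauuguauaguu
let-7d-5p: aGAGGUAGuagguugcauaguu

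The longest annotated 3′ UTR of each member (GENCODE M21, GRCm38) was searched for CTACCTC or TACCTCA, the DNA complements of the seed or of most of it with an A after it. Of 33 members, 3 held a match (9.1%), against 15.1% of 20676 genes searched. All 4 matches had the form TACCTCA, and no member held the 8-base site that joins both forms, against 3.1% of all genes. The windows are shown with the match in capitals, on the strand of the gene. Hk2 (hexokinase 2, minus strand) has matches at chr6:82726736-82726762 and chr6:82726444-82726470, Kdm3a (a histone demethylase, minus strand) at chr6:71589534-71589560, and P4ha2 (a collagen prolyl hydroxylase subunit, plus strand) at chr11:54131515-54131541.
Hk2, upstream match: tctgtggcttTACCTCAcacggctgaa
Hk2, downstream match: gctctagaaaTACCTCAttcacccgcg
Kdm3a: gatttcctgtTACCTCAtcttcttttt
P4ha2: ggtgcctttgTACCTCAgatatttcag

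These 3 genes did not rise in fresh AT2 cells of the knockouts. Hk2 stood at 55.4, 58.8 and 49.7 TPM in controls and 40.7, 37.6 and 53.8 TPM in knockouts, Kdm3a at 17.5, 17.6 and 13.3 against 16.7, 17.9 and 16.0 TPM. P4ha2 stood at 63.5, 79.2 and 91.7 against 66.2, 64.1 and 65.6 TPM. TPM (a transcript level per length, scaled to a fixed sum per library) can be compared between genes of a library. The genotypes overlapped for all 3 genes, with log2 fold changes of -0.32, 0.07 and -0.24.

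The other sequence feature searched was the HIF core in promoters. The members were chosen as glycolysis genes and hypoxia targets, so a share above that of all genes says nothing about the changes described below. The background was not matched for base content, though both cores contain CG, or for the number of windows per gene. RefSeq promoter windows (GRCm38.p6, 250 bases before to 50 after each start, both strands) were found for 31 members, not for Bhlhe40 and Ndrg1. A core, ACGTG or GCGTG on either strand, stood in at least 1 window of 29 of 31 genes (93.5%), against 46.7% of 27025 genes. Counted by window it stood in 35 of 45 (77.8%), against 43.8% of 32851. The last 40 bases lay in an annotated transcript of the gene for 38 of the 45. Vegfa held cores only in the window at chr17:46025114-46025413, inside the gene, and none in that at chr17:46032328-46032627. The form ACGTG stood in 22 (71.0%), against 21.8%. CACGTG, the E-box of other factors, contains ACGTG on both strands and stood in 3 members (9.7%; Ldha, Pfkfb3 and Bnip3), against 8.1% of genes. Gpi1 and Tpi1 held no core. A match is a description of the letters and not a binding site. Windows around a core are shown for members that the results below turn on, with cores of either strand in capitals and positions counted from the start site, negative before it. They are Ankrd37 at chr8:45999842-45999866 (minus strand, core at -6) and chr8:45999988-46000015 (cores at -155 and -152), and Slc2a1 at chr4:119108699-119108723 (plus strand, -36). Egln3 is at chr12:54204089-54204113 (minus strand, -229), Car9 at chr4:43506998-43507022 (plus strand, -18), Adm at chr7:110627557-110627581 (plus strand, -90) and Pgam1 at chr19:41911747-41911771 (plus strand, -114).
Ankrd37, near the start: gtgtttgggtACGTGaggccgcagc
Ankrd37, upstream: cttcactgcgCACGCGTGctgcggccgc
Slc2a1: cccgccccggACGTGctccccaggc
Egln3: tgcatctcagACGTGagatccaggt
Car9: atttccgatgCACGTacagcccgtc
Adm: tagaagcaagCACGCtggagaggga
Pgam1: ctccttgcttACGTGcgctccgtga

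TPM keep no sequencing depth, so the depth and counting error of each library are unknown. Between 11814 and 14175 genes per library reached 1 TPM. All fold changes below are log2 differences of TPM + 1, knockout against control, which understates changes of low genes. A gene passed at an adjusted p under 0.05 in limma, with Benjamini-Hochberg adjustment over all genes tested in that table. Some libraries stood apart. At 6 days the lung of knockout 3 had a haemoglobin share of 12.6% of TPM, and in AT2 cells knockout 1 had a ribosomal protein share of 14.3%, against 7.84% to 9.14% in the other AT2 libraries. Sorted AT2 libraries held 127324 to 211763 TPM of 10 AT2 markers such as Sftpc, and organoids 14744 to 82978. Libraries were not stranded, so a member cannot be told apart from a gene that overlaps it on the other strand (14 members). For 9 members, reads may also be shared with near-identical copies (at least 95% identity over at least 50% of the coding sequence). The largest such set belonged to Gapdh, with 72 other genes, 70 of them pseudogenes, and Eno1 shares sequence with Eno1b. In bulk samples, fewer cells of a type and less RNA per cell cannot be told apart.

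Which members passed differed between the kinds of sample. In the main test of the effects, only Ankrd37 differed between AT2 cells and lungs at 6 days, and between lungs at 6 days and 6 months. Between AT2 cells and organoids 17 of 31 members differed. In fresh AT2 cells 3 glycolytic genes rose and 1 hypoxia target fell. In lungs, the lower part of glycolysis, from Gapdh to Pkm, rose at both times. In organoids nearly all members were lower in the knockouts.

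**Figure D1:**
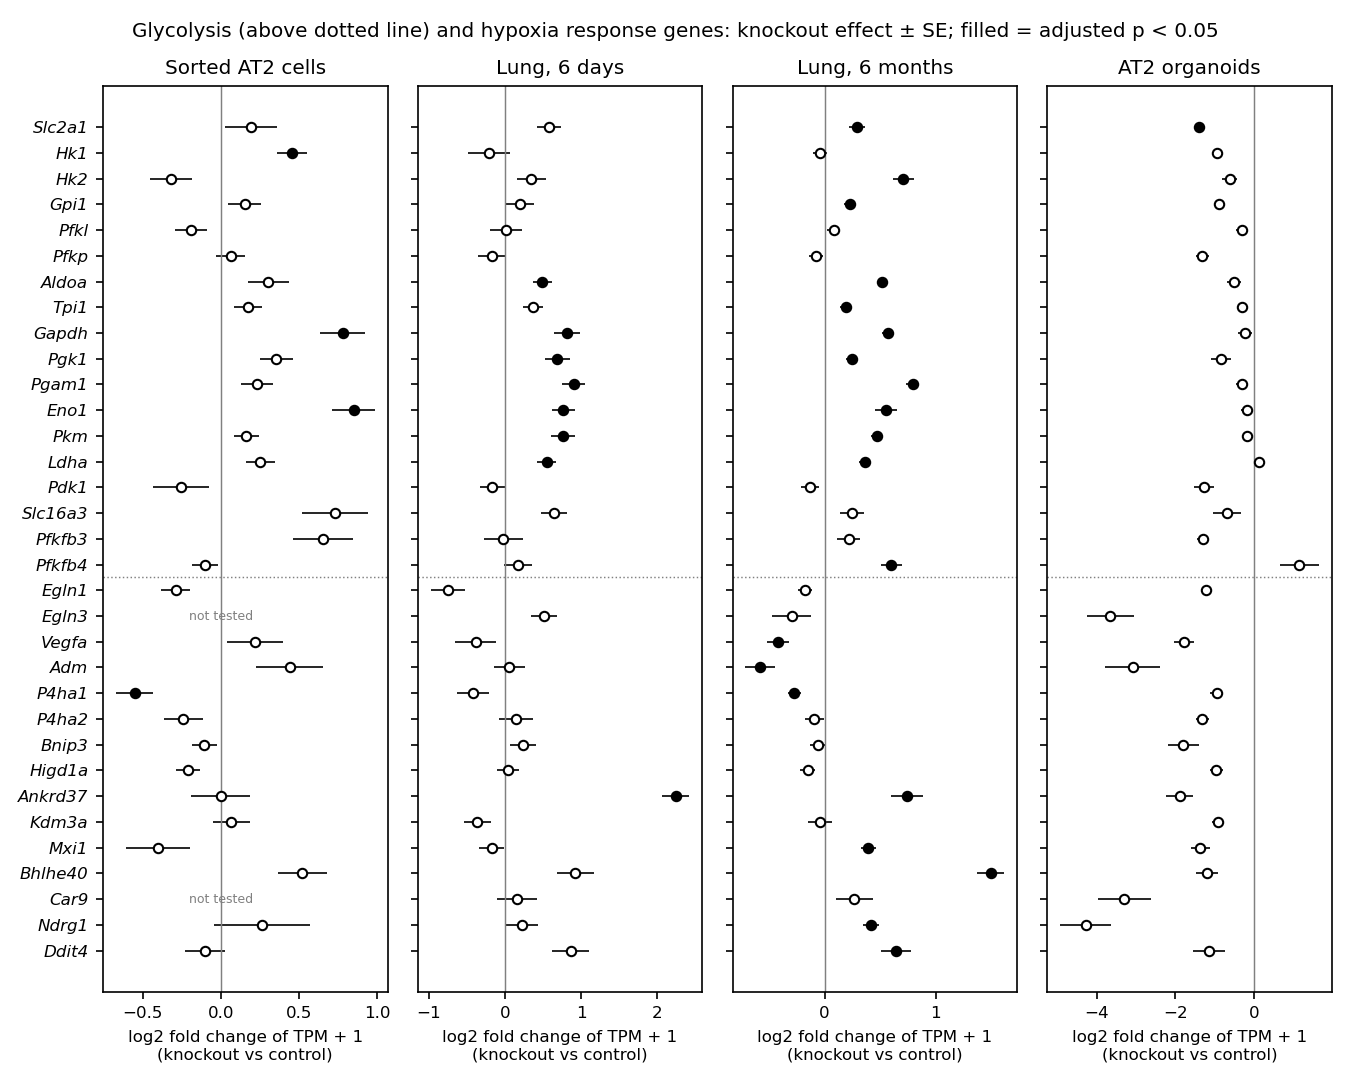
Knockout effect on each member in the 4 comparisons. The x axis is the log2 fold change of TPM + 1 (knockout against control) with its own scale in each panel, points are estimates with their SE, and filled points passed an adjusted p under 0.05. All 15 hypoxia members lie left of 0 in organoids, while the 5 lower glycolysis genes Gapdh to Pkm lie right of 0 in the other 3 kinds of sample.

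In sorted AT2 cells the question was what the deletion did within 6 days in the cells it targets. Of 31 members tested, 3 rose, Hk1, Gapdh and Eno1, and 1 fell, P4ha1. Egln3 and Car9 were under 1 TPM in every library and were not tested. Over all 12109 genes tested 6.62% rose and 1.22% fell, so the share of members that rose (3 of 31) is near the background. The median log2 fold change of the members was 0.16, against 0.08 over all genes.

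Eno1 (enolase 1, chr4:150236721-150248879) makes phosphoenolpyruvate. It stood at 96.8, 96.5 and 116 TPM in controls and at 211, 153 and 199 TPM in knockouts. All knockouts were higher, a log2 fold change of 0.85 ± 0.13 (SE, adjusted p = 0.0142, limma). Gapdh (chr6:125161715-125166467), the enzyme that makes NADH in glycolysis, stood at 739.6, 719.8 and 814 TPM in controls and 1541, 1090 and 1314 TPM in knockouts. All knockouts were again higher, by 0.78 ± 0.14 (adjusted p = 0.0223, limma). Hk1 (hexokinase 1, chr10:62268855-62379908) traps glucose as glucose 6-phosphate. It stood at 41.0, 46.2 and 49.8 TPM in controls and 63.0, 58.8 and 66.9 TPM in knockouts, 0.46 ± 0.09 higher (adjusted p = 0.0313, limma). The gene that fell, P4ha1 (chr10:59323296-59373304), encodes a catalytic subunit of collagen prolyl 4-hydroxylase, which collagen needs to fold. Its controls stood at 99.2, 107 and 116 TPM and its knockouts at 78.6, 80.9 and 60.8 TPM, a log2 fold change of -0.55 ± 0.12 (adjusted p = 0.0356, limma). The genotypes did not overlap for any of these 4 genes.

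**Figure D2:**
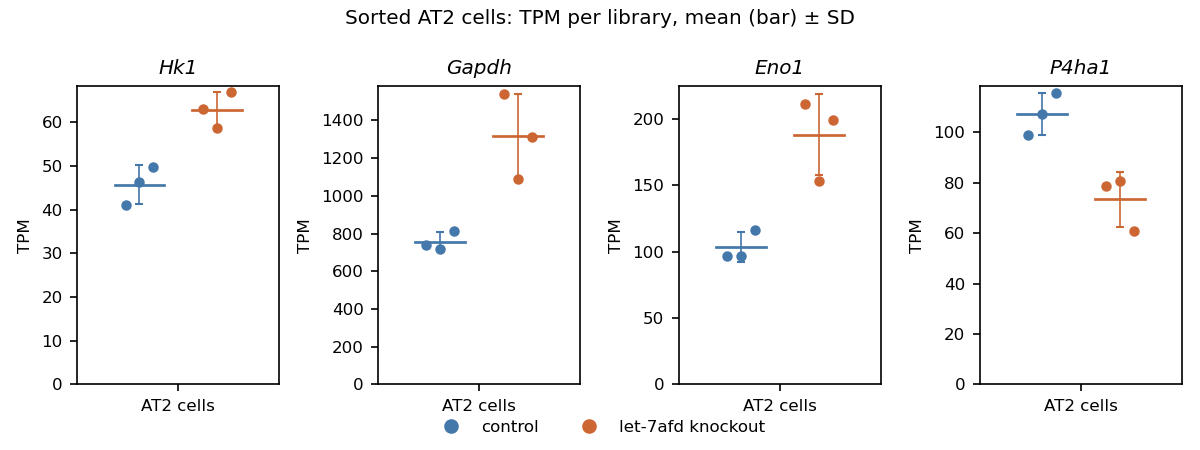
TPM of the 4 members that passed in sorted AT2 cells, with 1 point per library, 3 controls (blue) and 3 knockouts (orange), bars at the mean and whiskers of 1 SD, on a linear axis from 0. Hk1, Gapdh and Eno1 are higher in every knockout and P4ha1 is lower in every knockout.

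The other lower glycolysis genes had the same sign without passing. Pgk1, which makes ATP, stood at 138, 139.8 and 147 TPM in controls and 208, 158 and 181 TPM in knockouts (0.36, adjusted p = 0.0806). Pgam1, a mutase, had an effect of 0.23 and Pkm, pyruvate kinase, of 0.16. In all 5 genes of lower glycolysis every knockout was above every control. Over all 31 members tested, 12 had every knockout above every control and 3 had every knockout below every control. Of all genes tested, 25.4% and 8.31% did so, which sets the 12 of 31 against a background that leans up as well. Summed over the 13 enzymes from Hk1 to Ldha, controls held 3001, 3019 and 3144 TPM and knockouts 4540, 3610 and 4091 TPM. The summed level of the 15 hypoxia members was 749 to 843 TPM in controls and 736 to 837 TPM in knockouts, so these overlapped.

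The hypoxia members had mixed signs in AT2 cells, 6 above and 7 below 0 with a median of -0.10. Vegfa, the endothelial growth factor that AT2 cells make, stood at 101, 149 and 133 TPM in controls and 128, 133 and 185 TPM in knockouts. Bnip3, a receptor for removal of mitochondria, stood at 107, 112 and 104 against 93.5, 107 and 99.6 TPM. Ddit4, an mTOR inhibitor, stood at 114, 112 and 123 against 87.6, 119 and 121 TPM. The genotypes of these 3 genes overlapped. Bhlhe40, a transcriptional repressor, was above every control in the knockouts, at 70.4, 87.5 and 91.9 against 101, 113 and 149.7 TPM, and did not pass (0.52, adjusted p = 0.0832).

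The AT2 calls rested on few libraries. Left without control 2 or without knockout 3, no member rose or fell, when 1.47% and 1.73% of all genes rose. Without control 1 or control 3 only Eno1 rose, when 2.49% and 2.17% of all genes rose. Without knockout 1, Eno1 and Gapdh rose, when 3.56% of all genes rose. Without knockout 2 the members that rose were Eno1, Gapdh, Hk1, Pgk1 and Slc16a3, when 7.55% of all genes rose. P4ha1 passed in that last case only. Median-ratio scaling moved the share of higher calls among all calls from 84.4% to 67.3% and quantile normalization moved it to 65%. Under each of these scalings 2 members rose and P4ha1 fell. Macrophage and leukocyte transcripts moved with genotype in these sorts. The summed level of 5 defining alveolar macrophage markers was 6.83 to 16.8 TPM in controls and 37.3 to 46.9 TPM in knockouts, with 2 of 4 tested markers rising. A wider list of 14 such markers, these 5 included, summed to 45790 to 50661 TPM in controls and 30985 to 47162 TPM in knockouts. Of 12 tested in that list, 6 rose and 0 fell, against 6.62% and 1.22% of all genes. Marco, a macrophage scavenger receptor, stood at 0.248 to 0.573 TPM in controls and 5.71 to 16.4 TPM in knockouts. Ear2, Fabp4 and Mrc1 were also above every control, while Siglecf overlapped (0.395 to 0.528 against 0.0558 to 1.01 TPM). No defining marker was at 0 in any library. Pan-leukocyte markers summed to 13.8 to 43.2 against 62.1 to 104.8 TPM, and 8 proliferation markers to 230.1 to 243 against 462 to 496 TPM. Erythrocyte markers summed to 81.3 to 160 against 284.5 to 480.8 TPM. The 10 AT2 markers summed to 197074 to 211763 TPM in controls and 127324 to 184624 TPM in knockouts. Their sum was lowest in knockout 1, where the enzyme sum was highest. Of the 10, 0 passed and 1 had an unadjusted p under 0.05 in limma, as had 3296 of all 12109 genes. The part of all these markers in the rise of Gapdh, Eno1 and Hk1 was not tested.

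In whole lungs at 6 days, 8 of 33 members rose and 0 fell. They were Aldoa, Gapdh, Pgk1, Pgam1, Eno1, Pkm, Ldha and Ankrd37. Over all 14154 genes tested 3.16% rose and 3.79% fell. At an unadjusted p under 0.05 in limma 15 members moved, as did 3563 of all 14154 genes. Library weights gave 5 members that fell, and the share of all genes that fell with them is not given here. Median-ratio scaling and quantile normalization gave 1, Egln1, when 852 and 966 of all genes fell. The median log2 fold change of the members was 0.22, against -0.14 over all genes. Median-ratio scaling moved the median of all genes to 0.00 and the median of the members to 0.37.

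The gene with the largest rise was Ankrd37 (chr8:45996902-46005707), a small ankyrin-repeat protein known as a direct HIF target. It stood at 5.05, 5.60 and 4.64 TPM in control lungs and 23.5, 31.0 and 29.6 TPM in knockouts. Every knockout lung was several times above every control, a log2 fold change of 2.25 ± 0.18 (adjusted p = 0.00289, limma). It passed in all 14 alternatives, leaving out each library in turn included. Sorted AT2 cells from the same time did not show it, with 7.72, 5.10 and 5.22 TPM in controls and 6.07, 4.66 and 7.26 TPM in knockouts. The effect in AT2 cells was lower than in lungs by 2.25 (log2 difference -2.25, adjusted p = 0.0018), the only member of 31 whose effects differed between these sample kinds. Of all genes tested in both, 1.06% differed. Median-ratio scaling gave 4 such members, with the share of all genes under it not given here. Exons of Ankrd37 overlap Ufsp2 and Lrp2bp on the other strand. Ufsp2 stood at 27.6 to 29.1 TPM in control lungs and 34.6 to 37.7 TPM in knockouts (0.33, adjusted p = 0.188), and Lrp2bp stayed under 1 TPM in these libraries.

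Lower glycolysis rose in lungs at 6 days, 5 of 5 genes. Pgam1 (chr19:41911923-41918660) stood at 117, 155 and 131 TPM in controls and 230.5, 249 and 273.5 TPM in knockouts (0.90 ± 0.15, adjusted p = 0.0145, limma). Gapdh stood at 679, 941 and 663 TPM in controls and 1388, 1466 and 1141 TPM in knockouts (0.82 ± 0.17, adjusted p = 0.0315). Eno1 stood at 151, 168 and 144 against 270.1, 301 and 223 TPM (0.77 ± 0.15, adjusted p = 0.0241). No knockout lung overlapped the controls in any of these 3 genes.

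Pkm (chr9:59656368-59679375), the enzyme that makes pyruvate, stood at 303, 385 and 306 TPM in controls and 574, 628 and 482 TPM in knockouts (0.76 ± 0.16, adjusted p = 0.0287). Pgk1 (chrX:106187100-106203699) stood at 147, 183 and 136 against 219, 251 and 279 TPM (0.69 ± 0.16, adjusted p = 0.0437). Ldha (lactate dehydrogenase A, chr7:46841475-46855627) stood at 346, 416 and 355 against 553, 532 and 545 TPM (0.55 ± 0.12, adjusted p = 0.0388). Aldoa (aldolase A, chr7:126795234-126800751) stood at 553, 642.5 and 559 against 807, 856 and 802 TPM (0.49 ± 0.12, adjusted p = 0.0485), and was the least secure of the 8, passing in 3 of 14 alternatives. Summed over 13 enzymes, control lungs held 2683, 3333 and 2702 TPM and knockout lungs 4566, 4799 and 4126 TPM. Control 2 was the highest control in each of the 7 enzymes that rose and still lay below every knockout.

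Upper steps moved less at 6 days. Hk1 stood at 46.4, 52.4 and 52.1 TPM in controls and 59.0, 52.0 and 26.4 TPM in knockouts, where knockout 3 lay far below the rest. Pfkl and Pfkp, the phosphofructokinase subunits that set the pace of glycolysis, had effects of 0.01 and -0.17. Slc2a1, the glucose carrier GLUT1, was above every control in the knockouts (21.4, 26.0 and 25.8 against 38.3, 39.8 and 32.7 TPM) and did not pass (0.58, adjusted p = 0.0677). Slc16a3, the lactate exporter MCT4, was also above every control without passing (0.64, adjusted p = 0.0624).

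Among hypoxia members the others gave no call at 6 days. Egln1, the main oxygen-sensing HIF hydroxylase, stood at 53.7, 56.6 and 57.1 TPM in controls and 39.1, 39.5 and 22.5 TPM in knockouts (-0.75, adjusted p = 0.0834). Egln3 stood at 2.22, 2.26 and 1.82 against 3.16, 3.58 and 3.56 TPM (0.52, adjusted p = 0.108). Bhlhe40 and Ddit4 were above every control by 0.92 and 0.86 (adjusted p = 0.0609 and 0.0707). In all, 15 members had every knockout above every control and 2 had every knockout below, against 12.5% and 23.7% of genes tested. The background thus leaned down while the members leaned up.

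These counts moved with single lungs. Left without control 1, control 3 or knockout 2, only Ankrd37 rose, when 0.287%, 0.475% and 1.25% of all genes rose. Without knockout 3, the library with the high haemoglobin share, 14 members rose and Egln1 fell. Calls over all genes also grew there, to 7.19% that rose and 7.08% that fell. The members added were Slc2a1, Gpi1, Tpi1, Slc16a3, Bhlhe40 and Ddit4. Cell markers also moved with genotype at 6 days. Defining alveolar macrophage markers summed to 474 to 569 TPM in controls and 698 to 1161 TPM in knockouts, none at 0. Of these 5 markers, Marco rose (5.51 to 43.2 against 314 to 444 TPM), Siglecf fell (7.25 to 12.3 against 3.81 to 5.75 TPM) and 3 did not pass, of which Ear2 and Fabp4 overlapped. Pan-leukocyte markers summed to 1439 to 1854 against 2494 to 2824 TPM, and 2 of 6 rose. Endothelial markers summed to 2901 to 3253 against 1173 to 2814 TPM. All 8 had a negative effect and 0 passed (smallest adjusted p = 0.0884, limma). AT2 markers summed to 38177 to 44621 against 19099 to 22831 TPM, where 2 of 10 fell and 1 rose. Club and ciliated cell markers summed to 150435 to 174170 TPM in controls and 70165 to 86513 TPM in knockouts, and 4 of 6 fell. Proliferation markers summed to 74.8 to 199 against 218.5 to 339.6 TPM. Their part in the member changes was not tested.

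In whole lungs after 6 months of booster tamoxifen, 17 of 33 members rose and 3 fell. Of all 14177 genes tested, 15.9% rose and 13.9% fell. The members' median log2 fold change was 0.25, against 0.00 over all genes. Glycolysis gave 12 of 18 that rose and 0 that fell. At an unadjusted p under 0.05 in limma 13 of these 18 moved, as did 5592 of all 14177 genes. Among the hypoxia members 5 of 15 rose and 3 fell. All 8 members that rose at 6 days also rose at 6 months. Every call held in all 16 alternatives except Tpi1 (14 of 16), which was lost under quantile normalization among others.

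Bhlhe40 (chr6:108660629-108666925), a basic helix-loop-helix repressor that hypoxia and many other signals induce, rose most among the members. It stood at 31.7, 40.7, 46.6 and 45.8 TPM in controls and 99.6, 130.3, 127 and 111 TPM in knockouts (1.49 ± 0.12, adjusted p = 5.01e-06, limma). Pgam1 stood at 131, 120.5, 129 and 131 TPM in controls and 232, 229, 200.0 and 229 TPM in knockouts (0.79 ± 0.06, adjusted p = 2.3e-06). Ankrd37 stood at 4.54, 5.81, 7.08 and 4.51 against 9.64, 11.5, 9.39 and 8.42 TPM (0.74 ± 0.14, adjusted p = 0.0023). In these 3 genes the lowest knockout lay above the highest control.

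Hk2 (chr6:82725025-82774454), the inducible hexokinase, stood at 5.74, 7.42, 6.87 and 7.22 TPM in controls and 11.4, 12.3, 11.4 and 11.9 TPM in knockouts (0.71 ± 0.10, adjusted p = 0.000209). Pfkfb4 (chr9:108991778-109032228) makes the activator of phosphofructokinase, fructose 2,6-bisphosphate. It stood at 20.6, 21.8, 26.8 and 21.4 against 33.8, 36.2, 37.8 and 31.1 TPM (0.60 ± 0.09, adjusted p = 0.000586). Ddit4 (chr10:59949669-59951834) stood at 24.2, 21.3, 22.8 and 27.0 against 42.6, 41.1, 41.3 and 27.3 TPM (0.64 ± 0.13, adjusted p = 0.00377). Knockout 4 of Ddit4 lay just above the highest control, apart from the other 3 knockouts.

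Gapdh stood at 618, 586, 625.5 and 657 TPM in controls and 891.5, 972.5, 952 and 871 TPM in knockouts (0.57 ± 0.05, adjusted p = 1.39e-05). Eno1 stood at 99.2, 109, 140.5 and 125 against 185, 171, 181 and 155 TPM (0.55 ± 0.10, adjusted p = 0.00158). Aldoa stood at 581, 537.5, 629 and 586 against 864.5, 846, 824.5 and 808 TPM (0.52 ± 0.05, adjusted p = 2.74e-05). These are among the most abundant transcripts of the set, and their groups did not overlap. Pkm rose by 0.47 ± 0.05 (298, 264, 282 and 298 against 416, 385, 393 and 391 TPM, adjusted p = 4.81e-05). Ldha rose by 0.36 ± 0.05 (270.5, 266, 269 and 288 against 324, 367, 352 and 364 TPM, adjusted p = 0.000366). Pgk1 rose by 0.25 ± 0.05 (121, 119, 129 and 131 against 149.8, 145, 152 and 147 TPM, adjusted p = 0.00301). The 5 enzymes from Gapdh to Pkm had all risen at both times. Each had a smaller estimate at 6 months than at 6 days, and none of these differences passed (the smallest adjusted p was 0.264, for Pgk1).

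Of the remaining genes that rose, Ndrg1 (chr15:66929318-66969640), a stress gene of differentiating cells, stood at 38.0, 39.9, 44.1 and 46.6 TPM in controls and 57.3, 59.3, 55.3 and 53.9 TPM in knockouts (0.42 ± 0.07, adjusted p = 0.0012). Mxi1 (chr19:53310518-53375810), a MYC antagonist, stood at 33.9, 35.4, 32.6 and 34.8 against 43.7, 49.7, 45.4 and 42.0 TPM (0.39 ± 0.07, adjusted p = 0.001). Slc2a1 stood at 27.4, 23.6, 26.2 and 26.7 against 33.7, 32.6, 29.4 and 32.2 TPM (0.29 ± 0.07, adjusted p = 0.0101). Gpi1 and Tpi1, the isomerases of upper glycolysis, rose by 0.23 ± 0.05 and 0.19 ± 0.05 (adjusted p = 0.00483 and 0.0119), with means of 149 and 139 TPM in controls and 175 and 159 TPM in knockouts. Changes of this size are small, and the 4 lungs of each genotype lay close together.

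The 3 genes that fell were Vegfa, Adm and P4ha1. Vegfa (chr17:46016993-46032369) stood at 399.5, 353, 471 and 413 TPM in controls and 308, 262, 347 and 307 TPM in knockouts (-0.42 ± 0.10, adjusted p = 0.00667, limma). Adm (adrenomedullin, a vasodilator peptide, chr7:110627661-110629820) stood at 12.1, 11.1, 9.13 and 8.46 against 5.43, 6.28, 7.71 and 6.45 TPM (-0.58 ± 0.13, adjusted p = 0.00613). P4ha1 stood at 47.3, 48.3, 52.0 and 51.2 against 41.2, 40.5, 39.5 and 42.8 TPM (-0.27 ± 0.06, adjusted p = 0.0043). Every knockout lay below every control. P4ha1 thus passed in fresh AT2 cells and in lungs at 6 months in the same direction. In all, 17 members had every knockout above every control and 3 had every knockout below, against 16.4% and 14.2% of genes tested.

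**Figure D3:**
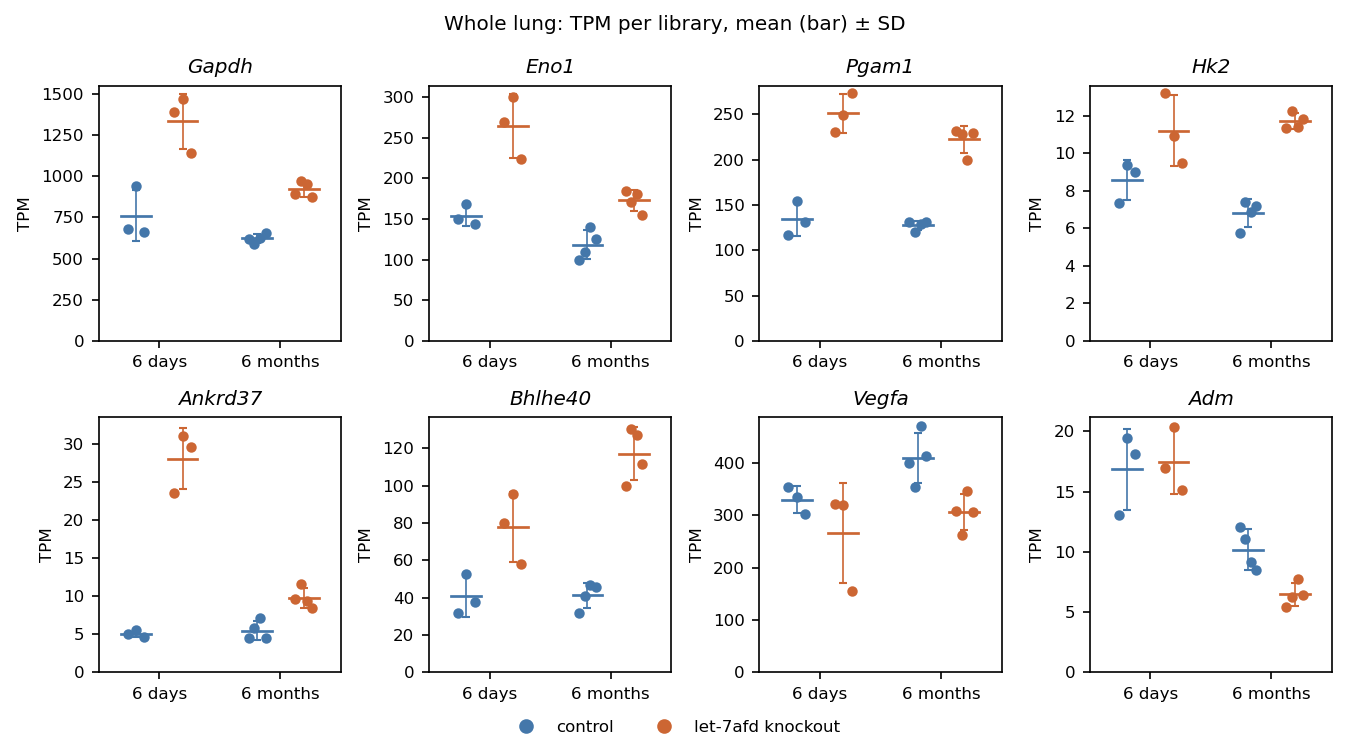
TPM of 8 members in whole lungs, 1 point per mouse, at 6 days (3 per genotype) and 6 months (4 per genotype), with the mean (bar) and SD (whiskers) on a linear axis from 0. Gapdh, Eno1, Pgam1 and Ankrd37 are higher in every knockout at both times; Vegfa and Adm are lower in every knockout at 6 months only.

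Cell markers differed at 6 months too. Defining alveolar macrophage markers summed to 213 to 286 TPM in control lungs and 433 to 831 TPM in knockouts, none at 0 and 4 of 5 rising, and pan-leukocyte markers to 1028 to 1319 against 2617 to 3009 TPM. Endothelial markers summed to 2978 to 3161 TPM in controls and 1872 to 2108 TPM in knockouts, and AT2 markers to 22421 to 24132 against 25733 to 31936 TPM. Club and ciliated cell markers summed to 174348 to 217888 against 97404 to 112054 TPM, and 5 of 6 fell. None of these ranges overlapped, and their part in the changes of the glycolytic genes, Vegfa and Adm was not tested. Proliferation markers overlapped, at 28.5 to 55.8 and 32.5 to 46.7 TPM.

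The lung effects at 6 days and 6 months differed for 1 of 33 members, while 2.73% of all 13875 genes differed. This was Ankrd37, whose effect was 1.51 ± 0.23 higher at 6 days (adjusted p = 0.0019). With a shared spread, 2 members differed, and the share of all genes under it is not given here. Egln3, at 0.52 and -0.29, came next (difference 0.81, adjusted p = 0.0893), then Mxi1, at -0.17 and 0.39 (adjusted p = 0.151). Vegfa passed at 6 months only, but its estimates were -0.39 and -0.42, a difference of 0.03 ± 0.29 (SE).

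In AT2 organoids the direction was the other one. Of 33 members, 31 had a negative log2 fold change, 24 at an unadjusted p under 0.05 in limma. Of all 12406 genes, 4527 had such a p in either direction. Only Slc2a1 passed the adjusted test, and no member rose. With 2 mice per genotype, 0.218% of 12406 genes rose and 0.387% fell. The members' median was -0.96, against 0.06 over all genes. Both knockouts lay below both controls for 30 members and above them for 2, against 32% and 39.6% of all genes tested. All 15 hypoxia members were lower, with a median of -1.36 and adjusted p values of 0.0528 to 0.13. The glycolysis members had a median of -0.56, with 16 of 18 negative.

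Slc2a1 (chr4:119108711-119137983), the glucose carrier, stood at 240.2 and 235 TPM in control organoids and 91.3 and 88.6 TPM in knockouts, tight within each genotype (-1.39 ± 0.10, adjusted p = 0.0317, limma). It did not pass without knockout 1, without knockout 2 or without the filter on low values.

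The largest differences were in hypoxia targets that were low in fresh AT2 cells. Ndrg1 stood at 162 and 395 TPM in controls and 20.2 and 7.11 TPM in knockouts (-4.28 ± 0.65, adjusted p = 0.0636). Egln3 (chr12:54178981-54203860), the HIF feedback hydroxylase, stood at 164 and 449.8 against 28.8 and 14.9 TPM (-3.65 ± 0.59, adjusted p = 0.0664). Car9 (chr4:43506966-43513729), the carbonic anhydrase that handles acid in hypoxic cells, stood at 43.8 and 139.9 against 10.6 and 4.67 TPM (-3.29 ± 0.67, adjusted p = 0.0706). Control 2 was far above control 1 in each of these genes, and knockout 2 was below knockout 1.

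Adm stood at 45.7 and 157 against 13.5 and 6.12 TPM (-3.08 ± 0.70, adjusted p = 0.075). Vegfa stood at 296 and 366 against 118 and 76.5 TPM (-1.78 ± 0.25, adjusted p = 0.06), and Bnip3 (chr7:138890836-138909519) at 597 and 1047 against 301 and 172 TPM (-1.79 ± 0.40, adjusted p = 0.0738). Of the 15 hypoxia members, control 2 was above control 1 in 12 and knockout 2 was below knockout 1 in all 15. Summed over the 15 genes, controls held 2357 and 3871 TPM and knockouts 1054 and 764.5 TPM.

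Several members of the entry steps and regulators were also lower, most of those named here with controls close together. Egln1 (chr8:124908587-124949324) stood at 122 and 133 TPM in controls and 58.1 and 50.1 TPM in knockouts (-1.22 ± 0.13, adjusted p = 0.0528). Hk1 stood at 131 and 133 against 67.0 and 70.0 TPM (-0.93 ± 0.10, adjusted p = 0.0528), Pfkp (chr13:6579768-6648777) at 112 and 113 against 52.3 and 38.5 TPM (-1.31 ± 0.18, adjusted p = 0.06). Pfkfb3 (chr2:11471433-11554077), the main inducible maker of fructose 2,6-bisphosphate, stood at 20.1 and 21.6 against 8.87 and 7.13 TPM (-1.29 ± 0.15, adjusted p = 0.0565). Pdk1 (chr2:71873224-71903858), a kinase that inhibits pyruvate dehydrogenase, stood at 94.9 and 144.5 against 54.9 and 42.8 TPM (-1.26 ± 0.25, adjusted p = 0.0706). Its controls were as far apart as those of some hypoxia targets. The control mice lay within a few percent of each other for Slc2a1, Hk1 and Pfkp, but not for Hk2 and Pfkl. There control 2 stood at 0.758 and 0.832 of control 1. Among the hypoxia members this ratio ran from 0.765 for P4ha1 to 3.44 for Adm, with Egln1 at 1.09.

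Among the abundant enzymes below the aldolase step, Pgk1 differed most, at 2358 and 2730 TPM in controls and 1750 and 1149 TPM in knockouts (-0.84 ± 0.25, adjusted p = 0.0986), and Pgam1 had an effect of -0.31. The others differed less. Gapdh stood at 6087 and 6505 TPM in controls and 5958 and 4897 TPM in knockouts (-0.22), Pkm at 2609 and 2603 against 2498 and 2172 TPM (-0.16), and Eno1, at 1948 and 1655 against 1690 and 1493 TPM, overlapped (-0.18). Under quantile normalization Gapdh turned to 0.07. Ldha, at 3607 and 3353 against 3982 and 3679 TPM, was slightly higher in knockouts (0.14, adjusted p = 0.516). Pfkfb4 was the other member above 0, at 33 and 11.5 against 45.6 and 44.7 TPM (1.16 ± 0.50, adjusted p = 0.169). The enzyme sum over Hk1 to Ldha was 22287 and 22930 TPM in controls and 20474 and 17267 TPM in knockouts.

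The number of organoid calls turned on which mouse was left out, with the lone sample assumed to vary like the other genotype. The members' median log2 fold change was -1.12 without control 1 and -0.95 without control 2, against -0.96 in the main fit. Without knockout 1 or without knockout 2, no gene of the whole table passed. Under the replicate number as a block 7 members fell, and with library weights 10. The shares of all genes that fell under these settings are not given here. Markers differed between the organoid genotypes as well. AT2 markers summed to 48574 and 14744 TPM in controls and 82978 and 75542 TPM in knockouts. Control 2, which held the highest hypoxia sum, thus had the lowest AT2 marker sum, and its ribosomal protein share was 23.4%, against 19.6% to 19.8% in the other organoid libraries. Proliferation markers summed to 378 to 536 against 738 to 887 TPM. Defining alveolar macrophage markers summed to 0.179 to 0.591 against 3.35 to 5.96 TPM. Most of this was Marco, at 0.103 to 0.174 against 2.37 to 4.46 TPM. Mrc1 was higher at 0.296 to 0.512 TPM and Ear2 overlapped. Siglecf was at 0 in both controls and in 1 of 2 knockouts, and Fabp4 at 0 in both controls. The wider list of 14 macrophage markers went the other way, with sums of 872 to 1686 TPM in controls and 445 to 449 TPM in knockouts. Of 5 tested in that list, 2 had a positive and 3 a negative effect, and 0 rose or fell. The part of the epithelial and proliferation markers in the member differences was not tested.

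**Figure D4:**
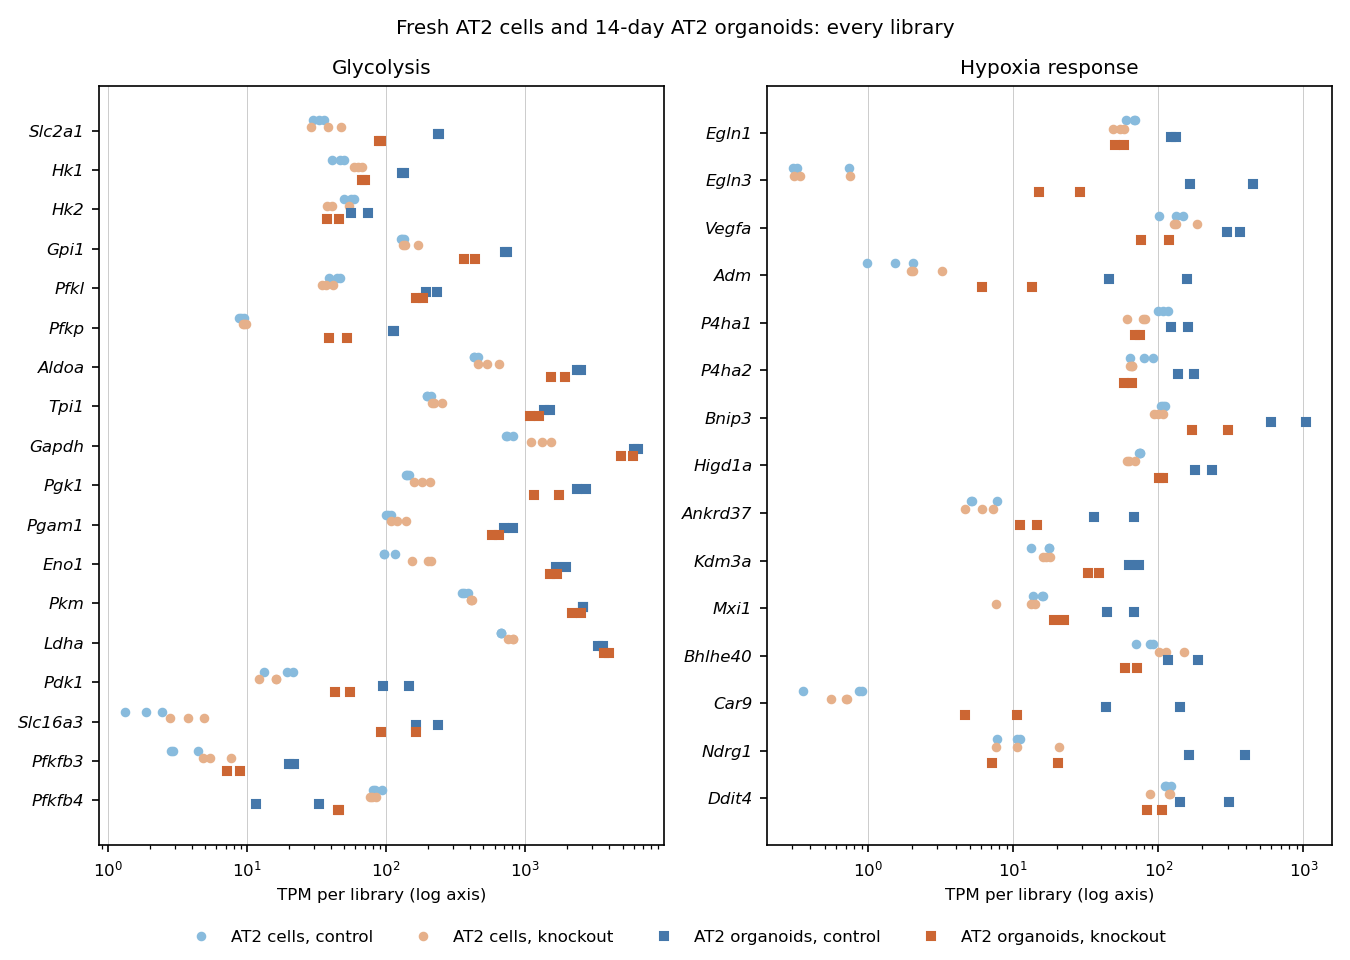
TPM of all 33 members in every library of fresh AT2 cells (circles, 3 per genotype) and AT2 organoids (squares, 2 per genotype), on log axes, glycolysis at the left and hypoxia targets at the right. Control organoids (dark blue) lie far to the right of fresh AT2 cells for Egln3, Adm, Car9 and Ndrg1, and knockout organoids (dark orange) lie between them for Egln3, Adm and Car9.

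These genes stood at another level in organoids than in fresh AT2 cells. Culture cannot be told apart here from other differences between these kinds of sample. In control organoids 32 of 33 members had a higher mean than in control AT2 cells, with a median ratio of 6.15 in TPM. The tables were normalized separately and the values are described without a test. The ratio was 679 for Egln3, 129 for Car9, 107 for Slc16a3, 66.8 for Adm and 28.2 for Ndrg1. Egln3 stood at 0.302 to 0.732 TPM in fresh control AT2 cells and Car9 at 0.353 to 0.910 TPM. Pfkfb4 was the exception, with a ratio of 0.26. In knockout organoids Ndrg1 (20.2 and 7.11 TPM) overlapped the fresh control AT2 cells (7.72 to 11.2 TPM) and Egln1 (58.1 and 50.1 TPM) lay below theirs (59.6 to 69.2 TPM), while Egln3, Car9 and Adm remained above them.

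The knockout effects in fresh AT2 cells and organoids were compared directly for 31 members, and 17 differed, all with the higher effect in fresh cells. Of all 11351 genes tested in both, 9.29% differed. The largest differences were Ndrg1 (4.54 ± 0.72, adjusted p = 0.0187), Adm (3.53 ± 0.73, adjusted p = 0.0475), Vegfa (2.00 ± 0.31, adjusted p = 0.00879) and Pfkfb3 (1.94 ± 0.25, adjusted p = 0.00105). Slc2a1 differed by 1.59 ± 0.19 (adjusted p = 0.000958) and Hk1 by 1.39 ± 0.14 (adjusted p = 0.000363). Hk1 rose in fresh AT2 cells, from a mean of 45.7 to 62.9 TPM, and stood at 131 and 133 against 67.0 and 70.0 TPM in organoids. The others that differed were Gpi1, Pfkp, Aldoa, Gapdh, Pgk1, Eno1, Egln1, P4ha2, Ankrd37, Kdm3a and Bhlhe40. P4ha1, negative in both (-0.55 and -0.94), and Hk2, negative in both (-0.32 and -0.62), were among the 14 that did not differ by this test.

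The HIF subunits themselves were also read. Hif1a, the acutely regulated alpha subunit, rose in AT2 cells from 66.8 ± 2.54 to 89.0 ± 8.99 TPM (SD, n = 3; 0.40, adjusted p = 0.0381, limma) and in lungs at 6 months from 37.9 ± 3.53 to 50.9 ± 4.21 TPM (SD, n = 4; 0.41, adjusted p = 0.00262, limma). Its effect was 0.42 in lungs at 6 days (adjusted p = 0.166), and -0.48 in organoids (adjusted p = 0.0756). Epas1, which encodes HIF-2 alpha and is abundant in endothelium, fell in lungs at 6 days from 1134 ± 119 to 461 ± 230 TPM (-1.43, adjusted p = 0.048) and at 6 months from 1062 ± 24.8 to 737 ± 31.9 TPM (-0.53, adjusted p = 8.45e-06). In AT2 cells its effect was -0.32 (adjusted p = 0.0586). Arnt, their partner, and Vhl, which takes part in their destruction, did not pass in any of the 4 tables, with effects between -0.54 and 0.16. Transcript levels do not measure HIF protein.

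Other genes of the pathway, from a list of 40 glycolysis and pyruvate genes outside the members, were tested in the same fits. In AT2 cells 0 of 31 passed, 6 at an unadjusted p under 0.05 in limma, and in organoids 0 of 29, with 12 at such a p. Over all genes, 3296 of 12109 in AT2 cells and 4527 of 12406 in organoids had such a p. At 6 days, 3 of 33 tested in lungs rose and 5 fell, against 3.16% and 3.79% of all genes. Those that rose were Hk3, the hexokinase of myeloid cells (1.22), Aldoc (1.32) and Eno1b (1.35), and Pgam2, the muscle mutase, fell by 2.08, Slc2a4, the insulin-dependent glucose carrier, by 1.38 and Ldhb by 0.81 on the log2 scale. At 6 months, 9 of 34 rose and 6 fell, against 15.9% and 13.9% of all genes. Hk3 rose from 2.55 ± 0.38 to 37.7 ± 10.1 TPM (SD, n = 4; 3.41, adjusted p = 8.63e-08, limma) and Aldoc from 4.20 ± 0.75 to 21.3 ± 5.01 TPM (2.09). Hkdc1 rose by 0.78, Eno2 by 1.24 and Mpc1, a subunit of the mitochondrial pyruvate carrier, by 0.68. Ldhb, the isoform that favours pyruvate, fell from 260 ± 6.99 to 157 ± 12.6 TPM (-0.73, adjusted p = 6.11e-06, limma) while Ldha rose. Pgam2 also fell at 6 months (-1.21) while Pgam1 rose. Other pairs of forms rose together, Aldoa and Aldoc at both times, Eno1 and Eno1b at 6 days, and Eno1 and Eno2 at 6 months. Eno1 and Eno1b may share reads, so their rises cannot be told apart.

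Of 12 pentose phosphate genes, 10 were tested in each table. None passed in AT2 cells, 1 at an unadjusted p under 0.05 in limma, and none in organoids, 3 at such a p. The counts over all genes were 3296 of 12109 and 4527 of 12406. In lungs, 3.16% of all genes rose and 3.79% fell at 6 days, and 15.9% rose and 13.9% fell at 6 months. Pgd and Taldo1 rose in lungs at 6 days (0.99 and 0.60) and Prps2 fell (-0.86). At 6 months 6 rose and none fell, among them Pgd, which yields NADPH, from 88.3 ± 4.56 to 188 ± 9.69 TPM (SD, n = 4), Taldo1 from 194 ± 11.5 to 354 ± 15.1 TPM, and G6pdx, the entry enzyme, from 42.9 ± 1.58 to 74.7 ± 3.53 TPM.

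Of 48 other HIF pathway genes and hypoxia targets, 4 of 39 tested in AT2 cells rose and 1 fell. Of all genes, 6.62% rose and 1.22% fell there. Besides Hif1a, Pgm2 (0.67), Ppp1r3c (0.69) and Gys1 (0.37), which serve glycogen metabolism, rose, and Selenbp1 fell by 0.49. Of 45 tested in lungs, 2 rose and 4 fell at 6 days, and 11 rose and 7 fell at 6 months. The shares over all genes were 3.16% and 3.79% at 6 days, and 15.9% and 13.9% at 6 months. At 6 days Lox (1.20), which cross-links collagen, was among those that rose, and Tfrc, Selenbp1, Cited2 and Epas1 fell. At 6 months Arnt2 (2.32), Nos2 (1.26) and the creatine carrier Slc6a8 (1.11) rose, while Tfrc (-0.93), the lipid droplet protein Hilpda (-0.69) and Epas1 fell. In organoids 0 of 43 rose and 3 fell, Stc1 from 64.8 ± 1.10 to 11.9 ± 2.31 TPM (SD, n = 2; -2.36, adjusted p = 0.0317, limma), Hif3a (-2.13) and Gbe1 (-1.65). Of all genes, 0.218% rose and 0.387% fell in organoids. Of the 43 listed genes tested in organoids, 35 were negative, with a median of -0.59 against 0.06 over all genes. This list shares no gene with the 33 members.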

How the data were processed

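Poly(A) RNA of 24 mouse libraries was sequenced without strand information (TruSeq, per the labels' protocols). The authors deposited TPM values, a level per transcript length scaled to a fixed sum, as 4 tables. The submitters' processing notes name GRCm38; aligner and quantifier: not given in the sources used here. Of 24972 rows in a table, 2 with a repeated symbol were dropped. Libraries summed to 999919.8 to 999972.4 TPM, which leaves the depth unknown.

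Separate limma 3.58.1 fits (R 4.3.3) of log2(TPM + 1) on genotype were made for the 4 tables, two-sided and with a variance trend; p-values were adjusted after Benjamini and Hochberg over the genes tested. The filter kept genes at 1 TPM or more in as many libraries as the smaller group holds. Differences between tables divided the difference of log2 fold changes by the root of the summed squared SE. The fits were tested on simulated data. The p-values measure the spread between these pools or mice. The members and gene lists were chosen with earlier results of these data known. Members that passed are given with every library's value, the others by role; of the other lists, up to 6 called genes with the smallest adjusted p are named, and of marker lists the sums. Among the called genes of these lists, 1 is not named here. Alternatives were a pseudocount of 0.1, no filter or 5 TPM, median-ratio scaling, quantile normalization, no trend, weighted libraries, a replicate block and leaving out each library.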

Additional observations from a re-analysis of the deposited data

Results flagged for a closer look

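Among the lungs at 6 months, 2 of 66 groups of 4 libraries held a library far from the other 3 of its genotype. These were Pgam1 at 200.0 TPM in knockout 3 and Ddit4 at 27.3 TPM in knockout 4; chance flags about 1 group in 20. Both genes passed without that library. The knockout effect of Ankrd37 was 1.51 higher (log2) in lungs at 6 days than at 6 months, and in AT2 cells it differed from lungs at 6 days by -2.25.

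The knockout effects in fresh AT2 cells were higher than in organoids, by the test of the difference, for 17 members. The log2 differences were 4.54 for Ndrg1, 3.53 for Adm, 2.00 for Vegfa, 1.94 for Pfkfb3, 1.89 for Ankrd37, 1.71 for Bhlhe40, 1.59 for Slc2a1, 1.39 for Hk1 and 1.37 for Pfkp. They were 1.20 for Pgk1, 1.07 for P4ha2, 1.04 for Gpi1, 1.03 for Eno1, 1.00 for Gapdh, 0.98 for Kdm3a, 0.93 for Egln1 and 0.81 for Aldoa.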

How the results depend on the processing

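The calls in lungs at 6 months kept their direction in every alternative and were lost only for Tpi1, in 2 of 16. In AT2 cells 1 member rose and 0 fell without the filter, and 0 fell without the variance trend or with the replicate block. Leaving out 1 library gave 0 to 5 that rose, when 1.47% to 7.55% of all genes rose, and 0 to 1 that fell. At 6 days, 5 rose in lungs without the filter, 5 without the trend and 21 with library weights. With 1 library left out 1 to 14 rose, when 0.287% to 7.19% of all genes rose. There 1 fell under median-ratio scaling, 1 under quantile normalization, 5 with weights and 0 to 1 with 1 library left out. In organoids 0 fell without the filter, 2 under quantile normalization, 10 with weights, 7 with the replicate block and 0 to 24 with 1 mouse left out, when 0 to 1 rose. Members whose lung effects differed numbered 2 with a shared spread, and AT2 cells and lungs at 6 days differed in 4 under median-ratio scaling. The cause was not tested. Shares of all genes called with weights, with the block, without the trend or filter, or in these differences are not given here. Those member counts therefore stand without a background. Effects near 0 in AT2 cells changed sign. Median-ratio scaling gave -0.0136 for Pfkp, -0.0736 for Ankrd37 and -0.0121 for Kdm3a, and quantile normalization -0.0412, -0.118 and -0.0125. With 1 library left out the log2 difference ran from -0.128 to 0.168 for Ankrd37, from -0.0559 to 0.133 for Kdm3a and from -0.108 to 0.558 for Ndrg1. In organoids Gapdh gave 0.075 under quantile normalization. Same-numbered libraries did not deviate together, with correlations of -0.17 to 0.17 in AT2 cells, -0.15 to 0.01 and 0.08 to 0.22 in lungs and -0.07 in organoids, so the replicate numbers were not taken as pairs. All 4 controls and all 4 knockouts of the lungs at 6 months nevertheless correlated best with their own number, a hint from the data and not the design. The depth of the libraries is unknown, so counting error cannot be set against low members such as Egln3 and Car9.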
